A study of Homo sapiens with 3 samples.

Results

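The genes described here encode the proteins of the large (60S) ribosomal subunit. They were taken as all genes whose symbol is RPL followed by a digit, or RPLP0, RPLP1 or RPLP2, among the gene names of 3 lists of ribosome peaks, with pseudogenes left out. This gave 46 of the 3580 genes with a peak in any list. A readthrough symbol, RPL17-C18ORF32, shares its coding exons with RPL17, so positions were measured on 45 loci. The lists came from ribosome profiling of HEK293T, a human embryonic kidney line, 24 h after transfection with an empty vector or with FLAG-tagged DDX3X, either wild-type or G325E, a substitution in this DEAD-box RNA helicase found in medulloblastoma. The endogenous DDX3X gene was present in all 3 groups. Per the labels the cells were given harringtonine (2 µg/ml, 90 s) and then cycloheximide (100 µg/ml). The study's methods name cycloheximide alone. Each group was 1 library, so the variation between cultures is unknown for every difference below, and no p-value is given.

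In all, 11219 peaks were listed for vector, 19920 for wild-type and 15680 for G325E. The lists gave positions without heights or read counts, so the depth behind a single peak is unknown. In the study's own read tally G325E was the shallowest library after duplicate removal and wild-type the deepest. Coding coverage in these genes had the same order, but the number of peaks did not, being lowest in vector. The part of depth was not tested. A peak marks bases whose read coverage passed a cut-off, so a shallower library and fewer ribosomes on an mRNA cannot be told apart in any difference below. The authors' peak numbers had gaps of 14.8% in vector, 13.5% in wild-type cells and 0% in G325E cells. The transfected gene itself, DDX3X, had 0 peaks in vector, 32 in wild-type cells and 9 in G325E cells, with 0%, 46.0% and 13.2% of its coding bases inside a peak. The labels give the cell type as neuronal, and of 8 neuronal marker genes (SYN1, MAP2, RBFOX3, TUBB3, NEFL, NEFM, SNAP25 and STMN2) 3 had a peak in each list.

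Large-subunit proteins surround the ribosomal RNA that forms peptide bonds, line the tunnel through which the new chain leaves, and form the stalk that recruits elongation factors. Their mRNAs are short, abundant and heavily translated. Most begin with a C and a run of pyrimidines, the 5′ terminal oligopyrimidine (TOP) motif, through which growth signals set their translation as a group.

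The starts of several of these transcripts are shown to let the motif be read beside the ribosome data. They were taken from RefSeq (GRCh38.p14), run 5′ to 3′ from 5 bases before the annotated start to 20 bases from it, and capitals mark the unbroken pyrimidine run that opens the transcript. RPL36A, RPL39 and RPL34 had no coding base in a G325E peak, RPL28 and RPL35 had G325E peaks in the 3′ part of the coding sequence but not in the 5′ part, and RPL24, RPLP2, RPL29, RPL36 and RPL41 were covered to varying extents. RPL36AL, which also had none in G325E, is a member whose listed start has a short run.
RPL36A (chrX:101391006-101391030, plus strand): ggtttCTTTCTTTCCgcgccgatag
RPL39 (chrX:119791611-119791635, minus strand): agcttCCCTCCTCTTCCTTTCTCCg
RPL34 (chr4:108620571-108620595, plus strand): ttcttCCTCTTCCggggacgttgtc
RPL36AL (chr14:49620607-49620631, minus strand): cctttCCTgttaggcgagagctgcg
RPL28 (chr19:55385927-55385951, plus strand): ccttcCTCTTTCCgtctcaggtcgc
RPL35 (chr9:124861938-124861962, minus strand): acttcCTCTTTCCCTCggagcgggc
RPL24 (chr3:101686699-101686723, minus strand): tctctCTTTCTTTTCgccatctttt
RPLP2 (chr11:809962-809986, plus strand): gccttCCTTTTCCTCCCTgtcgcca
RPL29 (chr3:51995876-51995900, minus strand): cctttCTCTTCCggttctaggcgct
RPL36 (chr19:5690290-5690314, plus strand): ccagcCCTTCCgccacggccgtctc
RPL41 (chr12:56116628-56116652, plus strand): cctttCTCTCggccttagcgccatt

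Of the 45 loci, 37 matched this table, and 26 of these (70.3%) had a listed start with C followed by at least 4 more pyrimidines on the gene's strand. The same was found in 14 of 21 matched small-subunit genes and in 5.14% of all 27305 genes of the table. Among members with no coding base in a G325E peak, 3 of 8 matched loci had such a start, against 23 of 29 of the other members. RPL9 and RPL26L1, among these 8, are members through wild-type peaks alone, so their absence from G325E was set by the selection. A run of at least 7 pyrimidines within 20 bases of a listed start was found in 6 of 8 and 27 of 29, and in 30.4% of all genes. Several genes have more than 1 listed start, and a gene counted if any of them matched. RPL32 and RPL9, for example, are listed with starts that do not open on a pyrimidine.

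The share of coding bases lying inside a peak was measured by position, whatever gene name the peak carried. It was high in these genes and lowest in the G325E list. The median over the 45 loci was 61.7% in vector (quartiles 38.1 and 80.5), 66.4% in wild-type cells (43.2 and 84.3) and 37.5% in G325E cells (11.7 and 54.8). Over the 1479 genes with at least 10 peaks summed over the lists the medians were 6.28%, 14.8% and 8.42%. These mRNAs therefore had more of their coding sequence in peaks than most genes in every list, and they are short, with a median of 435 coding bases against 1161.

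**Figure D1:**
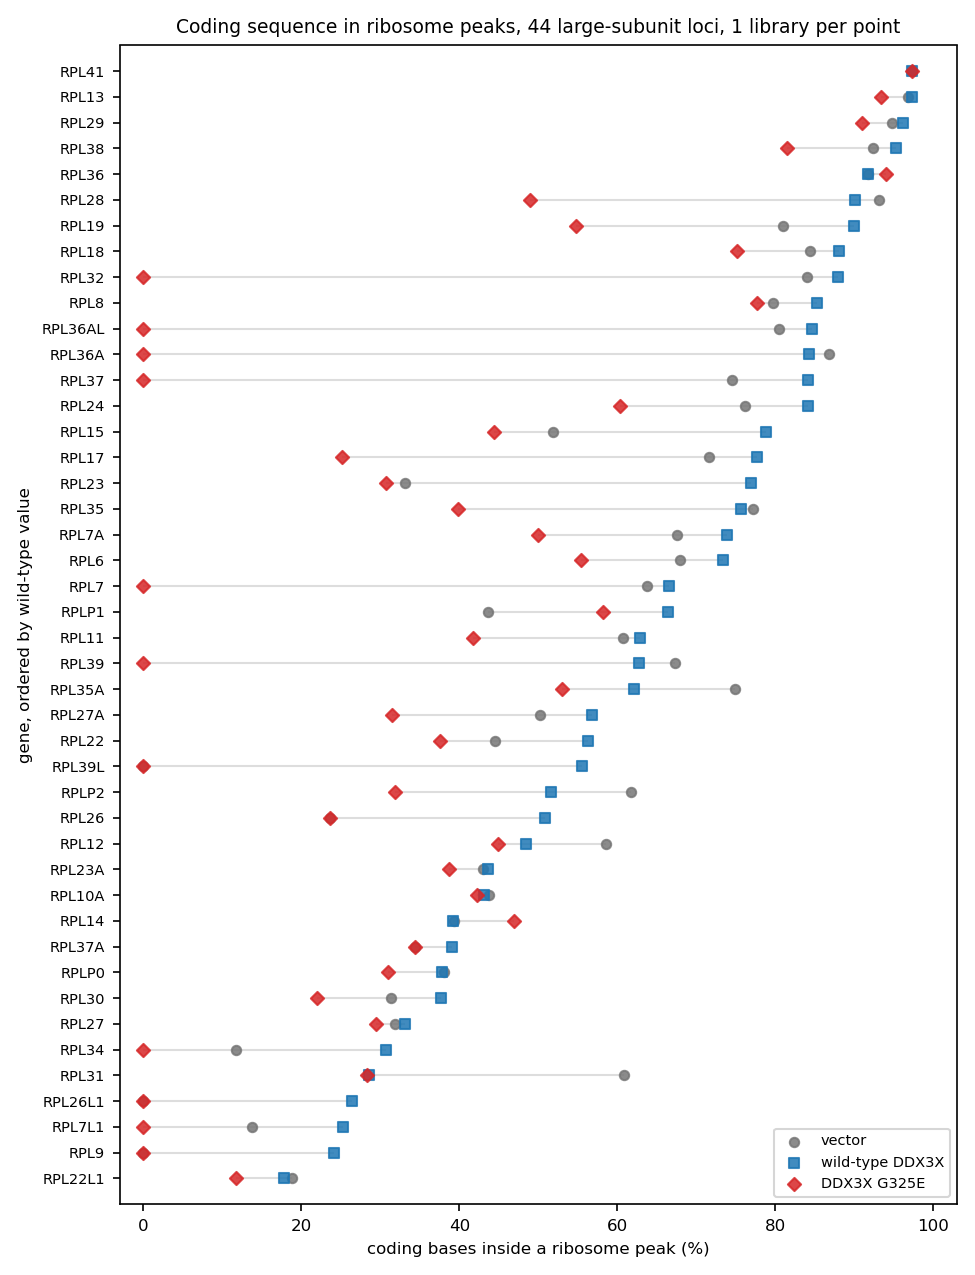
Percentage of coding bases inside a ribosome peak (x axis) for each of 44 large-subunit loci (y axis, ordered by the wild-type value), with 1 point per library. G325E points lie to the left of the wild-type points for 41 loci, and 11 lie at 0.

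Coding coverage was lower in G325E than in wild-type at 42 of 45 loci, higher at RPL14 and RPL36, and equal at RPL41. The median difference was −19.7 percentage points (quartiles −35.2 and −5.24). Against vector, G325E was lower at 36 loci, higher at 3 and equal at 6, with a median difference of −9.28 points. Wild-type was higher than vector at 31 loci and lower at 12, with a median difference of 3.72 points. Wild-type held the highest of the 3 values at 31 loci, vector at 11 and G325E at 2. The same counts over all genes tested are not given, so these counts do not set the members apart. The median over all genes tested, given above, was also lower in G325E than in wild-type, but higher than in vector. All 3 comparisons share libraries and are not independent of each other. RPL26L1, RPL39L and RPL9 had peaks in wild-type alone and are members only through them. For these loci a wild-type value above vector and G325E was set by the selection.

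Differences of at least 25 points were counted next. Between G325E and wild-type, 18 of 45 loci were lower by that much and 0 were higher (background 4.19%). Of the 34 loci with at least 10 assigned peaks, 10 were lower, where 12.3% of all such genes were. Most genes in that background had less coverage than the limit itself, since their wild-type median was 14.8%. Among genes covered to 50% or more in wild-type, 39% were lower in G325E by 25 points, and the members among them were 9 of 24. Their median difference was −20.4 points, beside −17.6 for all 210 such genes. The filter on assigned peaks left out loci whose peaks carry other names, and without it 15 of 31 members (48.4%) were lower by 25 points. Against vector, 12 of 45 loci were at least 25 points lower in G325E (10 of 34 with enough peaks, background 6.02%). Most genes in the background had less coverage than the limit in vector too, so they could not fall by this much from vector. A share among genes with similar vector coverage is not given, so these counts do not set the members apart. From vector to wild-type 5 loci were higher by this margin (1 of 34, background 6.29%) and 1, RPL31, was lower (background 0.541%). RPL26L1 and RPL39L, members through wild-type peaks alone, are among these 5 and among the 18 above.

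**Figure D2:**
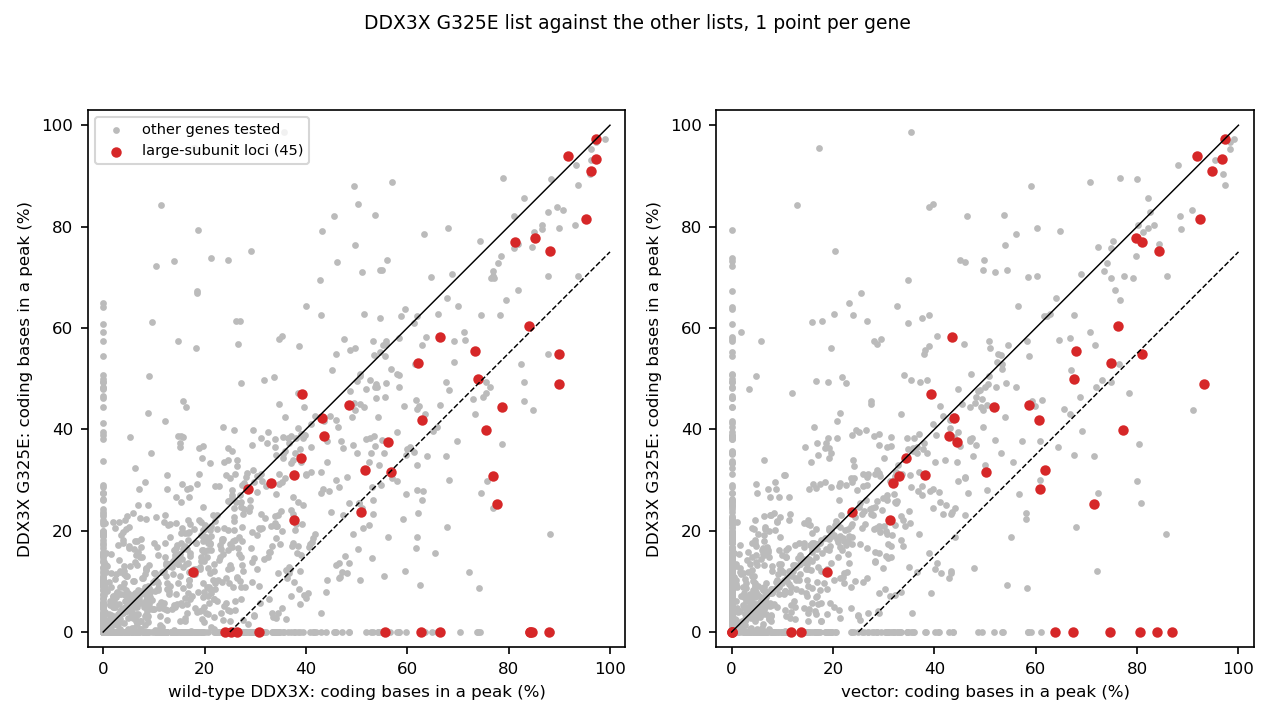
Percentage of coding bases inside a peak in G325E (y axis) against wild-type (left x axis) and vector (right x axis). Red points are the 45 large-subunit loci and grey points the other genes tested; the solid line marks equal values and the dashed line a value 25 points lower, below which 18 loci lie on the left and 12 on the right.

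RPL32, RPL36A, RPL36AL, RPL37, RPL7, RPL39, RPL39L, RPL34, RPL26L1, RPL7L1 and RPL9 had no coding base in a G325E peak, 11 of 45 loci. Each had at least 10% in wild-type. Of the 34 loci with at least 10 assigned peaks 6 were in this state, beside 20.4% of the 851 genes tested with that much in wild-type. Vector lacked 3 loci (RPL39L, RPL26L1 and RPL9), 0 of the 34 (background 17%). These 3 are members through wild-type peaks alone, so their absence from both other lists was set by the selection. Among genes covered to 50% or more in wild-type, G325E lacked 12.4% and vector 7.14%, beside 5 and 0 of the 24 such members.

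The 5 largest differences between wild-type and G325E were all of this kind. RPL32 was covered over 84.0% of its coding bases in vector, 87.9% in wild-type cells and 0% in G325E cells. RPL36AL had 80.5%, 84.6% and 0%, and RPL36A, its close paralog on the X chromosome, had 86.8%, 84.3% and 0%. In both genes vector and wild-type lay within 5 points of each other while G325E had no coding peak. RPL37 had 74.6%, 84.2% and 0%, and RPL7 had 63.7%, 66.5% and 0%. RPL39, a very small protein of the exit tunnel, had 67.3%, 62.7% and 0%. The remaining loci that G325E lacked were thinly covered in vector as well, between 0% (RPL39L, RPL26L1, RPL9) and 13.7% (RPL7L1).

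For 10 of these 11 loci the G325E list had no peak anywhere on the gene, introns included. The exception was RPL36AL, with 1 peak on its locus and none on its coding sequence. By the authors' annotation 14 G325E peaks belonged to RPL36AL, but 13 of them carried MGAT2, the gene beside it, as the nearest name, so the assigned number for this gene does not follow its coding sequence. The peak-free stretches of the G325E list around these loci differed, and the usual gap between its peaks is not given here. For RPL37 one edge lay 26.8 kb away. The stretch ran for 3866 kb around RPL32, which held 3 wild-type peaks outside RPL32 itself. It ran for 2967 kb around RPL36A, with 31 wild-type peaks on other genes. Of the latter, 7 lay within 100 kb, on HNRNPH2. Next to RPL39 the G325E list lacked 6 wild-type peaks on UPF3B, and next to RPL7 it lacked 7 on RDH10. Of the 10 loci with no G325E peak, 4 had wild-type peaks on another gene within 100 kb, and 6 (RPL32, RPL37, RPL34, RPL9, RPL39L and RPL26L1) had none there. The cause of these absences was not tested.

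The stalk and the 5S particle varied. RPLP0, the base of the stalk, was covered over 38.1% of its coding bases in vector, 37.7% in wild-type cells and 31.0% in G325E cells. RPLP1 had 43.6%, 66.4% and 58.2%, and was 1 of the 3 loci higher in G325E than in vector. RPLP2, its partner in the stalk, had 61.7%, 51.6% and 31.9%, the reverse order of vector and wild-type. The 3 stalk genes thus shared only a G325E value below wild-type. RPL11, which with RPL5 and 5S RNA forms the particle that binds MDM2 when ribosome assembly fails, had 60.7%, 62.9% and 41.8%.

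Proteins near the exit tunnel ranged from a near-constant level to none. RPL23A, a docking site of the signal recognition particle, had 42.9%, 43.6% and 38.7% and so differed by under 5 points between lists. RPL17 had 71.6%, 77.7% and 25.2%. RPL35 had 77.2%, 75.6% and 39.8%. In both of the latter, vector and wild-type were close and G325E lay lower by more than 25 points. RPL22 had 44.5%, 56.2% and 37.5%. Close to the peptidyl transferase centre, RPL8 kept most of its coverage, with 79.8%, 85.2% and 77.7%. RPL10A, on the L1 stalk where deacylated tRNA leaves, had 43.8%, 43.2% and 42.2%, and RPL41, the shortest of the group with 75 coding bases, had 97.3% in each list.

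Paralog pairs differed between their members. RPL22 stood above RPL22L1, which had 18.9%, 17.8% and 11.7%. RPL26 was highest in wild-type, with 23.7%, 50.8% and 23.7%. RPL26L1 had 0%, 26.4% and 0%, but it is a member through wild-type peaks alone, so this order was set by the selection. RPL7 and RPL7L1 (13.7%, 25.2% and 0%) were both without coding peaks in G325E, as were RPL36A and RPL36AL. RPL39L had coding peaks in wild-type alone (55.6%), through which it is a member, whereas RPL39 had them in vector too. The order of the lists at RPL39L was thus also set by the selection. Reads from near-identical copies may be split or misplaced between such genes, and every 30-base window of the RPL36A, RPL39 and RPL7 coding sequences has an exact copy elsewhere in GRCh37.

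A few genes had their highest coverage in wild-type, with vector and G325E close together. RPL23, a protein of the subunit interface, was covered over 33.1% in vector, 76.9% in wild-type cells and 30.7% in G325E cells. RPL15 had 51.8%, 78.8% and 44.4%. In these genes, as in RPL26, vector and G325E were within 8 points of each other. RPL31 was the reverse, with 60.8% in vector and 28.5% and 28.3% in the DDX3X lists. At the 2 loci that were higher in G325E than in wild-type the difference was small, with 39.2% in wild-type cells and 47.0% in G325E cells at RPL14, and 91.7% and 94.0% at RPL36. RPL13 (96.8%, 97.3% and 93.4%) and RPL29 (94.8%, 96.2% and 91.0%) were covered over more than 90% in every list.

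Seen along the coding sequence, the differences included whole exons. The coding sequences held 175 exon parts of at least 30 coding bases, of which 47 had no base in a peak in vector, 39 in wild-type cells and 82 in G325E cells. Of the 124 parts covered to 50% or more in wild-type, 40 were empty in G325E and 10 in vector. The choice by wild-type coverage favours wild-type here. The same share for exon parts of other genes is not given, so these counts do not set the members apart. No part covered to 50% or more in G325E (0 of 79) was empty in wild-type. Below that limit 2 parts were covered in G325E alone, exons 7 and 8 of RPLP0, over 14.2% and 47.8%. These values count peaks on either strand. By peaks on its own strand RPLP0 was covered over 28.8% in G325E, beside 31.0% on either strand. Of the 40 empty parts, 18 lay in 13 genes that G325E otherwise covered.

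**Figure D3:**
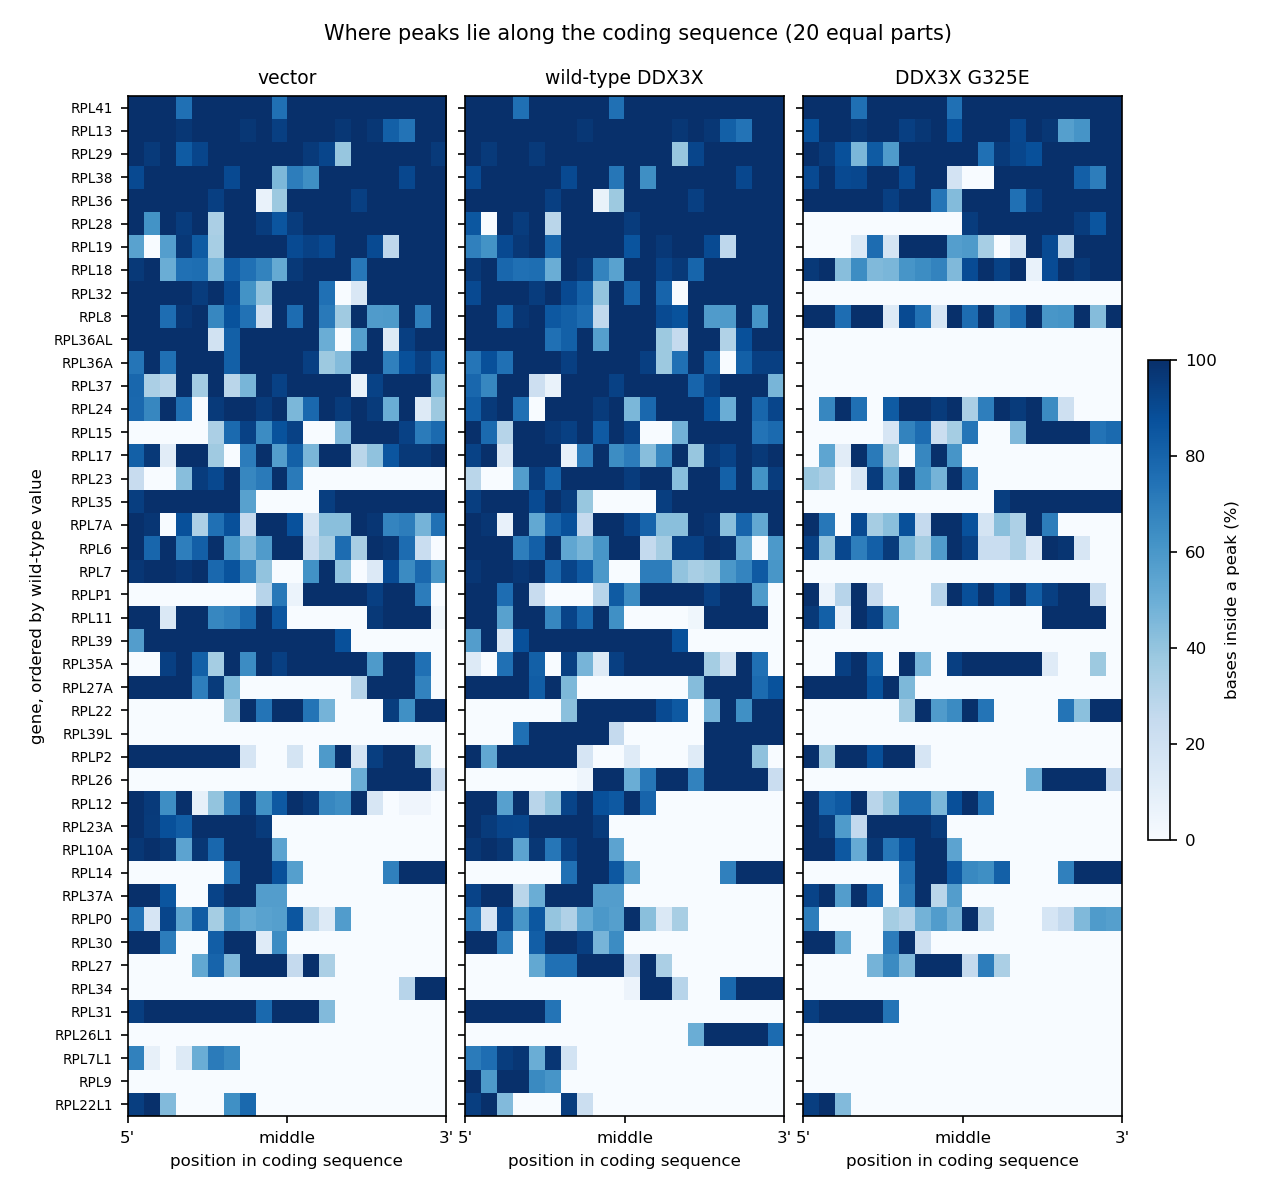
Percentage of bases inside a peak (colour) in 20 equal parts of the coding sequence, from the 5′ end (left) to the 3′ end (right), for 44 loci in the order of their wild-type value and for each library. White rows in the right panel are the 11 loci without a coding peak in G325E, and white blocks shared by all 3 panels, as in RPL23A, include exons that no list covered.

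RPL28 shows such a block. Its exon 2 (chr19:55897726-55897806, GRCh37) was covered over 90.1% in vector, 70.4% in wild-type cells and 0% in G325E cells, and exon 3 over 84.7%, 87.1% and 0%. Its exon 4 had 99.2% in every list. RPL35 had the same pattern in exon 2 (99.3%, 94.9% and 0%), while exon 4 had 100.0% in each list. In RPL17 it was exons 2, 6 and 7 that were empty in G325E, and exon 4 kept 54.1% beside 74.8% in wild-type. For RPL23 exons 4 and 5 were empty in vector and in G325E and covered over 88.6% and 85% in wild-type. In RPL31 exon 3 was covered in vector alone (96.8%, 0% and 0%).

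Other blocks were missing from every list. No base was covered in 34 of the 175 exon parts, in 20 of the 45 genes, such as exons 5 and 6 of RPL10A, 3 and 4 of RPL23A and 3 of RPL35. Exons 2 to 4 of RPL10A were covered over 74.1% to 100.0% in the 3 lists, and its whole coding sequence over 42.2% to 43.8%. In the 84 parts covered to 50% or more in wild-type and covered at all in G325E, the medians were 82.4% in vector, 90.8% in wild-type cells and 76.1% in G325E cells.

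Coverage was largely nested. Of the coding bases that G325E covered, 97.1% were also covered in wild-type and 95.6% in vector. Conversely, G325E covered 60.4% of the wild-type bases and 65.8% of the vector bases. Of the 20961 coding bases, 37.3% were covered in all 3 lists and 33.6% in none.

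Genes of this family are known for their many processed pseudogenes. Of the coding bases in no peak of any list, 48.7% lay only in 30-base windows with an exact copy elsewhere in the genome, and of those in a peak 48.5% did. Coverage of these copied bases was 54.4% in vector, 62.5% in wild-type cells and 34.5% in G325E cells. Of the bases in no copied window it was 54.6%, 57.7% and 39.6%. G325E was thus lowest in both kinds of sequence. Without the copied bases the median difference over loci was smaller, −9.82 points against wild-type and −5.31 against vector. RPL36A, RPL39 and RPL7 have no other coding bases and so left this median. All were without coding peaks in G325E, so part of the shift comes from their loss.

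GC content differed with presence in G325E. The 11 loci without a coding peak in G325E had a median coding GC content of 47.2% (range 42.5 to 50.9), and the 34 others 52.0% (40.4 to 62.2). Of the 15 loci lowest in GC, 7 had no coding peak in G325E, of the 15 in the middle 4, and of the 15 highest 0. These include RPL9 and RPL39L in the lowest 15 and RPL26L1 in the middle 15, whose absence from G325E was set by the selection. The same split by GC content is not given for all genes tested. Median coverage in the lowest 15 was 44.5% in vector, 55.6% in wild-type cells and 11.7% in G325E cells. In the highest 15 it was 79.8%, 81.3% and 54.8%. Low-GC members were thus less covered in each list, and the G325E value was the lowest of the 3 in both groups. The members as a whole had a lower GC content (49.8%) than all genes tested (56.2%). The part of GC content in these differences was not tested.

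**Figure D4:**
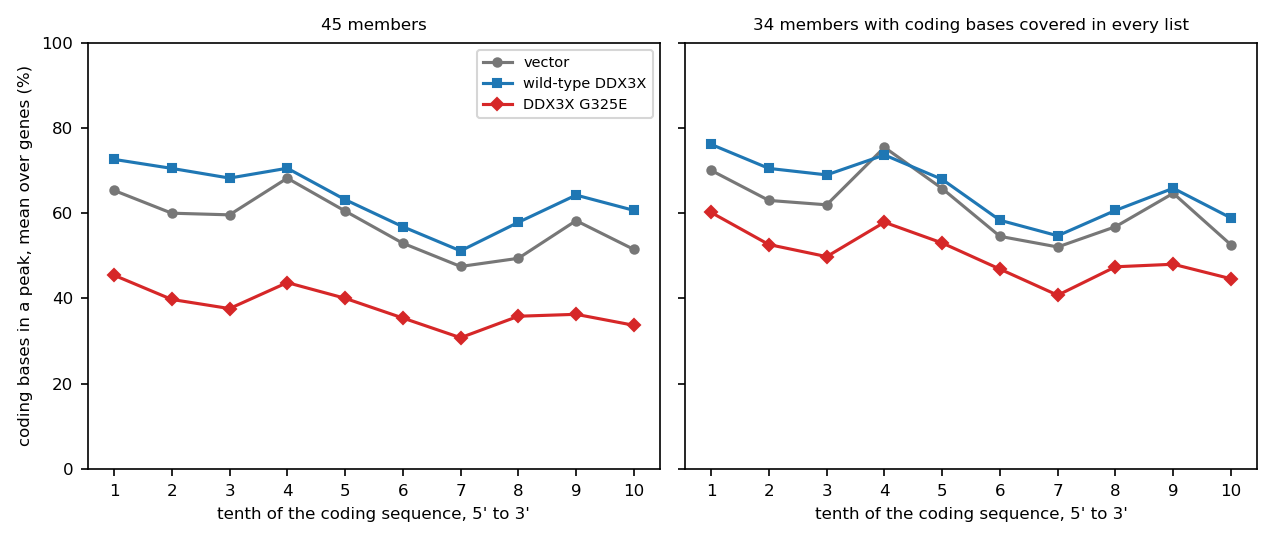
Coding bases inside a peak (y axis, mean over genes, %) by successive 10% parts of the coding sequence (x axis) for 45 loci (left) and for the 34 loci covered in every list (right), with 1 line per library. The G325E line lies below the others in every part of both panels.

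By position, coverage was lower in G325E at both ends of the coding sequence. Over the 45 loci the first 10% of the coding sequence was covered over 65.3% in vector, 72.6% in wild-type cells and 45.5% in G325E cells. The last 10% was covered over 51.5%, 60.7% and 33.7%. In the 34 loci covered in every list the first 10% had 70.0%, 76.1% and 60.2%, and the last 10% 52.6%, 58.9% and 44.6%. In each list the first 10% was covered more than the last. The midpoints of coding peaks lay on average at 0.456 of the coding length in vector (95% interval 0.422 to 0.491, 256 peaks), 0.454 in wild-type cells (0.418 to 0.489, 269 peaks) and 0.432 in G325E cells (0.391 to 0.472, 186 peaks). These intervals, which cover counting error only, overlap. Coding peaks in the first 10% made up 12.1%, 14.9% and 13.4%.

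Start codons are where harringtonine would hold ribosomes. The surroundings of several are shown with the start codon in capitals (GRCh37, 9 bases before it and 9 after it). That of RPL15 was in a peak in wild-type alone, that of RPL36AL in vector and wild-type, and those of RPL13 and RPL41 in every list. For RPL17 only 1 base of the start codon was in a wild-type peak, and no base in the other lists. The coding part of its exon 2, which holds the start codon, was covered over 85% in vector and 95% in wild-type.
RPL15 (chr3:23959342-23959362, plus strand): taagccaagATGggtgcatac
RPL17 (chr18:47017930-47017950, minus strand): tctgtgaaaATGgttcgctat
RPL36AL (chr14:50085811-50085831, minus strand): gctgcaaagATGgtcaacgta
RPL13 (chr16:89627359-89627379, plus strand): taggcagccATGgcgcccagc
RPL41 (chr12:56510563-56510583, plus strand): ctctgcgccATGagagccaag

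At least 1 base of the start codon lay in a peak at 27 of 45 loci in vector, 31 in wild-type cells and 22 in G325E cells, and in every list at 21. No start codon was in a G325E peak without being in a wild-type peak, and 9 were in a wild-type peak only of these 2 lists, 5 of them in loci that G325E otherwise covered. A purine stood 3 bases before the start codon in 43 of the 45 genes. These included all 27, 31 and 22 whose start codon was in a vector, wild-type or G325E peak, and 21 of the 23 not in a G325E peak. Among covered loci the start codon was in a peak in 64.3% of those in vector (49.2 to 77, 95% Wilson interval), 68.9% in wild-type cells (54.3 to 80.5) and 64.7% in G325E cells (47.9 to 78.5). Over all genes with at least 10 peaks and a covered coding base the share was 44.8% in vector, 48.7% in wild-type cells and 62.8% in G325E cells. The members were not held to that minimum. Large-subunit genes thus lay above all such genes in vector and wild-type, and near them in G325E. In G325E the level of all such genes was higher. Small-subunit genes lay above them in each list. Large-subunit genes were also covered over more of their coding sequence than all such genes, and the part of this in the start-codon shares was not tested.

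Stop codons lay in a peak at 17, 21 and 11 loci. As shares of covered loci these were 40.5% (27.0 to 55.5), 46.7% (32.9 to 60.9) and 32.4% (19.1 to 49.2). Over the same tested genes as for start codons they were 16.4%, 18.5% and 9.07%. Peaks thus reached the stop codon more often in large-subunit genes in each list, and in G325E least often in both. The same held for small-subunit genes beside all tested genes. Members also had more of their coding sequence in peaks, and the part of this in these shares was not tested.

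By the authors' annotation, large-subunit genes held 308 peaks in vector, 356 in wild-type cells and 243 in G325E cells. These were 2.75% (2.46 to 3.06, 95% Wilson interval), 1.79% (1.61 to 1.98) and 1.55% (1.37 to 1.76) of each list. Assigned peaks were present for 41 of 46 genes in vector, 45 in wild-type cells and 32 in G325E cells, where 56.5%, 84% and 64.5% of all 3580 genes had a peak. In vector the share of the lists was highest, and the DDX3X lists did not differ beyond their intervals.

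The regions of these peaks were compared with those of other genes in each list. The exon class held 55.2% of member peaks in vector (49.6 to 60.7), 50% in wild-type cells (44.8 to 55.2) and 51.4% in G325E cells (45.2 to 57.7). Peaks of all other genes fell in this class in 49.3% (48.4 to 50.2), 51.6% (50.9 to 52.3) and 35.3% (34.6 to 36.1). In the promoter-TSS class, which holds peaks near a transcription start and much of the 5′ UTR, members had 22.7% (18.4 to 27.7), 28.7% (24.2 to 33.6) and 26.7% (21.6 to 32.6), and other genes 23.0%, 21.0% and 34.8% (34.1 to 35.6). In G325E the member and other-gene intervals were apart in both classes, while from vector to wild-type the member shares moved by more points than those of other genes. Small-subunit genes had 55.2%, 44.9% and 45.3% (37.3 to 53.6) in the exon class and 21.3%, 27.5% and 28.8% (21.9 to 36.8) in the promoter-TSS class, so in G325E their intervals overlapped those of the large-subunit genes in both. In the large-subunit genes the 5′ UTR class itself was small, with 2.27%, 2.81% and 3.70% of member peaks. Peaks of 1 gene are not independent, and the intervals cover counting error only.

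**Figure D5:**
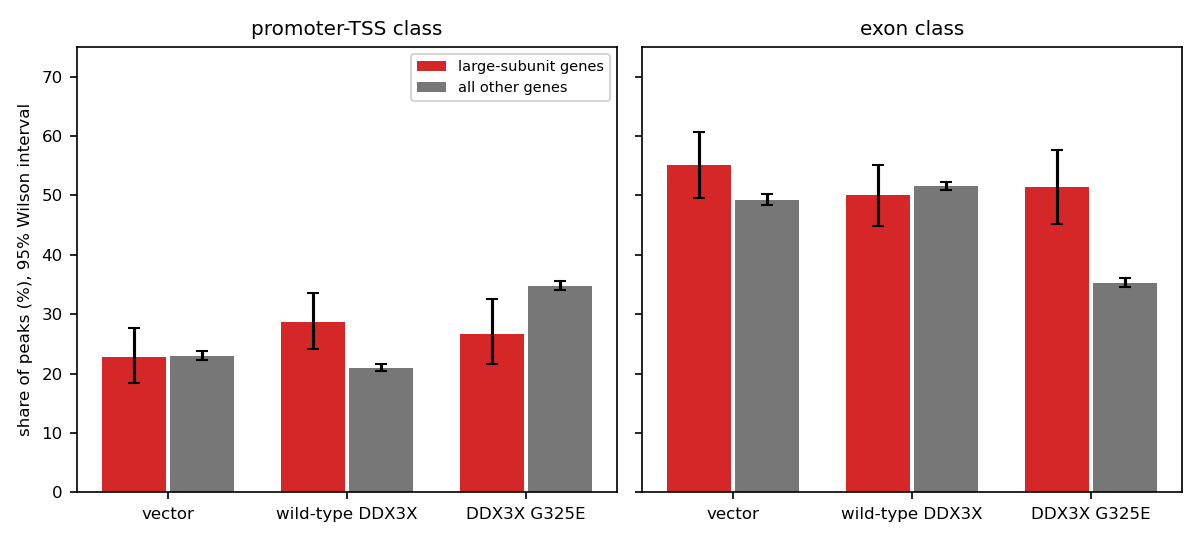
Share of peaks (y axis, %) in the promoter-TSS class (left) and the exon class (right) for large-subunit genes (red) and all other genes (grey) in each library, with Wilson 95% intervals that cover counting error only. In G325E other genes have 34.8% in the promoter-TSS class and 35.3% in the exon class, and large-subunit genes 26.7% and 51.4%.

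Assigned peak numbers did not follow coverage closely. Scaled to the total of each list (pseudocount 0.5), 4 of the 35 members with at least 10 peaks were at least 2-fold higher in G325E than in wild-type (background 19.2%) and 7 were 2-fold lower (23.8%). The higher ones were RPL7A, RPL31, RPL38 and RPL14, and the lower ones RPL7, RPL32, RPL7L1, RPL36A, RPL37, RPL35 and RPL17-C18ORF32. RPL7A, with 8 assigned peaks in G325E and 3 in wild-type, was less covered in G325E (50% against 73.9%), with a log2 ratio of peak number of 1.57. By position its locus held 15 peaks in G325E and 21 in wild-type, most of them assigned to small nucleolar RNAs. Against vector, 2 members were 2-fold higher (24.5%) and 12 lower (23.7%), and from vector to wild-type 0 were higher (20.2%) and 7 lower (14.9%). Medians of the log2 ratio over the members were 0.11, −0.76 and −0.74 for G325E against wild-type, G325E against vector and wild-type against vector, beside 0.07, −0.18 and −0.29 for all 1788 genes.

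Introns of these genes encode small nucleolar RNAs, which guide modification of ribosomal RNA, and the nearest name of a peak was often theirs. Of 748 peaks on member coding sequences 180 (24.1%) were assigned to another gene, such as SNORD58A and SNORD58C on RPL17, SNORD68 on RPL13 and SNORA21 on RPL23. RPL23A had 0 assigned peaks in any list, because its peaks went to SNORD42B and other names, yet its coding sequence was covered as given above. Peaks lying in introns only made up 18.9% of the peaks on member loci in vector (15.3 to 23.2), 22.3% in wild-type cells (18.5 to 26.6) and 19.9% in G325E cells (15.5 to 25). On annotated small nucleolar RNAs there were 9 of 70, 7 of 90 and 1 of 54 such peaks. Antisense peaks on these loci were 10 of 370, 14 of 403 and 12 of 272.

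Other mRNAs of the translation machinery were measured in the same way. In 28 small-subunit genes the median coding coverage was 54.8% in vector, 62.2% in wild-type cells and 35.5% in G325E cells, and G325E was below wild-type in 27, by at least 25 points in 14. RPS28 was the 1 gene that was higher (95.7% in wild-type cells and 96.1% in G325E cells). In a list of 17 other TOP mRNAs the medians were 31.3%, 34.0% and 2.81%, with 15 lower in G325E than in wild-type. EEF1A1, the factor that brings aminoacyl-tRNA to the ribosome, had 34.9%, 64.9% and 0%. EEF2, the translocation factor, kept 70.2% beside 76.9% in wild-type.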

How the data were processed

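Ribosome-protected fragments were sequenced from 3 HEK293T cultures, 1 library per construct, with groups read from the sample titles. The values used were peak coordinates and annotation, which the authors deposited as 1 peak list per sample (unit: positions in bases, with no score). As the study and the submitters' processing notes describe it, adapters were trimmed with cutadapt, reads were aligned with BWA 0.5.5 to hg19 and transcript sequences, duplicate reads were taken out, and peak calling ran in each sample above a coverage cut-off, followed by review. HOMER annotated them (version not given in the sources used here). The study kept the best alignment across its databases and describes the reads as uniquely mapped. How reads that match several copies equally well were treated is not given in the sources used here.

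A peak was assigned to the gene of the RefSeq identifier in its annotation, otherwise to the nearest gene name. Coding bases were those of canonical transcripts of GENCODE release 44 on GRCh37 coordinates, and a base counted if a peak on either strand held it. Background counts were taken over genes with at least 10 peaks. Intervals are Wilson 95% intervals. The counting code was tested on simulated lists. Promoter starts were those of RefSeq. Software was Python 3.11.15 with numpy 2.4.6, pandas 2.3.3, statsmodels 0.14.6, pysam 0.24.0 and matplotlib 3.10.9.

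Named genes were those with a known place in the subunit, paralog pairs and genes lacking in a list. Up to 5 of the largest rises and falls in coding coverage from wild-type to G325E were named too, but only RPL14 and RPL36 rose. Exon examples were chosen after their values were seen. The members, lists and limits were chosen with earlier results of these data known. The large-subunit genes RPL3, RPL4, RPL5, RPL10, RPL13A and RPL21 are never gene names in the lists and so are not members. A few genes that entered the counts and medians are not reported here by name.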

Additional observations from a re-analysis of the deposited data

Results flagged for a closer look

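RPL10, which completes the peptidyl transferase centre late in subunit assembly, is not a member because its symbol is in no list, but 44.4% of its coding bases lay in wild-type peaks where vector, the control, and G325E had 0%. It drew attention as a signal outside the main measurement that is absent from the control library. These peaks were named for SNORA70, a small nucleolar RNA in its introns. In both lists that lacked RPL10 the peaks of the neighbouring gene FLNA, 9 in wild-type, were missing too, in a peak-free stretch of 307 kb in vector and 302 kb in G325E.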

How the results depend on the processing

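No paired analysis was possible because each group held 1 library. Of 166 values recomputed under other settings, 140 stayed close to the reported value (a count or median difference within 1.5 times, another value within its interval), 26 moved and 0 changed sign. With each list cut to its 11219 longest peaks, coverage was lower in G325E than in wild-type at 40 loci by a median difference of −14.8 points, and the exon share of wild-type member peaks was 60.8%, above that of G325E (57.1%).

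Members 2-fold higher in G325E than in vector numbered 1 by nearest gene name, with peaks of at least 20 bases, with longest peaks or with pseudocount 1, and 0 on the gene's strand or in the exon class. Against wild-type they numbered 2 with peaks of at least 20 bases, with longest peaks or in the exon class. In the exon class the 2-fold lower members numbered 4 against vector and 3 against wild-type, and with no minimum beyond 1 peak 14 against wild-type. A limit of 40 points left 10 loci lower in G325E than in wild-type. Among the 34 loci covered in every list, chosen after seeing the data, 8 were lower by 25 points than wild-type and 6 than vector, and 0 had no coding base covered by construction. On the gene's strand the member share of G325E peaks was 1.36% and its promoter-TSS share 21.5%. By nearest gene name the mean coding position was 0.416 in vector and 0.401 in wild-type. The median difference in coding coverage was −8.33 points against wild-type and −3.77 against vector by nearest gene name. It was −9.82 and −5.31 without copied bases, a setting that also left out RPL36A, RPL39 and RPL7. In the loci covered in every list it was −11.0 against wild-type. The causes of these shifts were not tested, apart from settings that leave fewer genes or peaks by construction. With 1 library per group, no value here has an error between cultures.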

Other observations

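Several large-subunit genes outside the member list had coding peaks under other names. RPL3, of the peptidyl transferase centre, was covered over 73.9% in vector, 83.9% in wild-type cells and 55.3% in G325E cells. RPL4, whose extension reaches into the exit tunnel, had 49.7%, 71.6% and 37.5%. Both were lowest in G325E. RPL13A had 64.5%, 59.8% and 57.8%, RPL21 had 41.7%, 42.5% and 8.75%, and RPL5, of the 5S particle, had 18.3%, 17.7% and 0%. The tissue-restricted copies RPL3L and RPL10L had no coding base in a peak in any list. Pseudogenes of the RPL family, 6 in number and left out above, held 20 peaks in vector, 26 in wild-type cells and 12 in G325E cells.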
